A study of Ovis aries with 18 samples.

Results

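The miR-26 family comprised 2 rows, oar-miR-26a and oar-miR-26b, chosen by name as the rows that carry the number 26a, 26b or 26c in their own name or in that of a miRNA with the same seed. These were 2 of 495 rows in the table for uterine lumen extracellular vesicles and 2 of 761 rows in the table for endometrium, and the same 2 names stood in both. No row of a predicted locus was listed with a miR-26 seed, and no row was named miR-26c. All sheep (Ovis aries) were ovariectomized and injected daily with progesterone (P4, 50 mg) over 14 days. In the P4+RU486 group, 50 mg of RU486 (mifepristone, an antagonist of the progesterone receptor) was added daily from day 8 to day 14, and the P4 group received P4 alone, with 5 ewes per treatment. Small RNA was sequenced from vesicles, 4 libraries of P4+RU486 ewes and 4 of P4 ewes, and from endometrium, 5 libraries per treatment. Since the ovaries were removed and all ewes received P4, neither group stands for an untreated or a cyclic uterus. Vesicle libraries are called R01 to R04 (P4+RU486) and P01 to P04 (P4), and their names do not give the ewe.

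A microRNA guides an Argonaute protein to messenger RNAs through its seed, bases 2 to 8 counted from the 5′ end, and lowers the output of those messages. miR-26a and miR-26b have the same seed and differ at a few bases outside it, so they are known to act on overlapping targets. Among these, in human and mouse, is the histone methyltransferase EZH2. The family is abundant in many differentiated tissues. In RefSeq's genes for the sheep assembly ARS-UI_Ramb_v3.0, which is not the build of these files, MIR26A lies within the span of CTDSP2 and MIR26B within that of CTDSP1, both genes of small phosphatases that act on the tail of RNA polymerase II. Other mammals carry a further copy of miR-26a, with the same mature sequence, in the related gene CTDSPL, and reads of such copies cannot be told apart.

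Read depth differed widely among the vesicle libraries, with 101186 to 328453 reads in listed rows in P4+RU486 and 97202 to 1062646 in P4 (exact permutation p = 0.457 for the difference of means, two-sided). Rows of the epithelial miR-200 list took 0.992% to 1.56% of reads in P4+RU486 libraries and 0.932% to 2.59% in P4 libraries, and no row was listed for its members miR-141 and miR-429. The ciliated list (miR-34b, miR-34c and miR-449a, matched by name or seed) took 1.14% to 1.86% of reads in both treatments. The smooth muscle list took 0.991% to 1.45% of reads in P4+RU486 and 1.07% to 1.73% in P4. The leukocyte list took 0.165% to 0.438% in P4+RU486 and 0.164% to 1.82% in P4, and the erythroid row 0.175% to 0.553% in P4+RU486 and 0.0262% to 0.791% in P4. Stromal rows took 0.0128% to 0.0604% in P4+RU486 and 0.00715% to 0.111% in P4, and no row was listed for the endothelial miR-126 or the hepatic miR-122. No row was listed for miR-449a, miR-1, miR-133a, miR-451, miR-144 or miR-223 either. Each list with rows had ranges that overlapped between treatments, and no tested row of these lists passed the limma test at an adjusted p of 0.05. The median log2 difference, P4+RU486 minus P4, was -0.75 for the 2 tested smooth muscle rows, -0.38 for the 3 leukocyte rows and 1.18 for the erythroid row. It was 0.08 for the 5 epithelial rows, 0.27 for the 3 ciliated rows and -0.03 for the 1 tested stromal row. The part of these cells in the results on the family was not tested.

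oar-miR-26a was among the most abundant miRNAs of the vesicles and oar-miR-26b was about an order of magnitude below it. Values are normalized CPM, the usual per-library read scale, with a library size that the authors had adjusted for composition. oar-miR-26a was at 50482, 68763, 43684 and 42857 normalized CPM in the P4+RU486 libraries R01 to R04, against 58753, 78221, 96681 and 58482 in the P4 libraries P01 to P04. R02 was the highest P4+RU486 library and lay above P01 and P04, so the treatments overlapped, while the other P4+RU486 libraries lay below every P4 library. The mean was 51447 ± 12039 (SD, n = 4) in P4+RU486 and 73034 ± 18274 (SD, n = 4) in P4, a ratio of the means of 0.704. Such values are relative to the other reads of the library. In a whole-vesicle preparation, fewer vesicles that carry a miRNA, fewer copies in each vesicle and more of other miRNAs cannot be told apart.

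**Figure D1:**
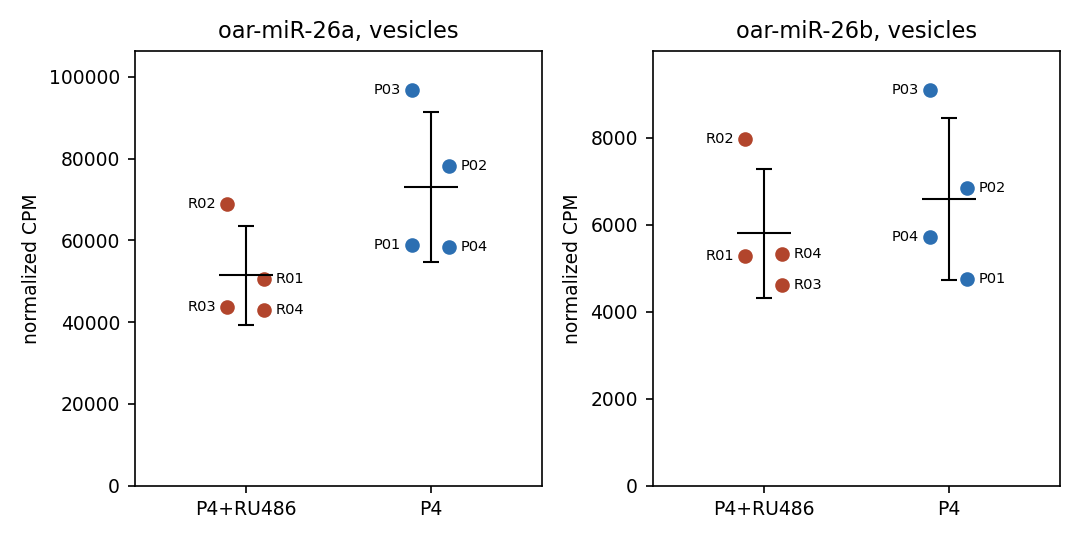
Normalized CPM of oar-miR-26a (left) and oar-miR-26b (right) in each vesicle library, for P4+RU486 and P4. Points are libraries, and the bar and whiskers are the mean and SD of 4 libraries. Both treatments overlap in each panel, and R02 and P03 are the highest library of their treatment in both.

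The difference in oar-miR-26a did not pass the test across all rows. It was -0.50 on the log2(value + 1) scale, P4+RU486 minus P4 (SE 0.23, 95% interval -0.999 to -0.000269, limma adjusted p = 0.334, 0.0499 unadjusted), 1.41-fold lower in P4+RU486. Of the 229 rows with a mean of at least 10 normalized CPM, 0.437% passed at an adjusted p of 0.05 and 14.4% had an unadjusted p under 0.05. Among the 229 rows, 32 had a smaller p than oar-miR-26a and 42 a lower log2 difference. Only 11 of the tested rows had a smaller SE, and the median over all tested rows was 0.51. The median log2 difference of all tested rows was 0.04, with 111 rows lower and 118 higher in P4+RU486. Among the 10 most abundant rows the median was 0.13, and 4 were lower. These included oar-miR-26a itself and the rows 10_3805 and X_35741, which have identical values.

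oar-miR-26b was at 5283, 7965, 4609 and 5325 normalized CPM in R01 to R04, against 4746, 6829, 9086 and 5705 in P01 to P04. Its highest P4+RU486 library, R02, lay above every P4 library but P03, and its lowest P4 library, P01, lay below every P4+RU486 library but R03. The mean was 5796 ± 1483 (SD, n = 4) in P4+RU486 and 6591 ± 1868 (SD, n = 4) in P4. The log2 difference was -0.18 (SE 0.27, 95% interval -0.76 to 0.40, limma adjusted p = 0.842). It rested on single libraries, at -0.01 without P03 and -0.34 without R02. This interval runs from 1.69-fold lower to 1.32-fold higher in P4+RU486, so a change of the size estimated for oar-miR-26a lies within it. Neither family row passed in any of the 18 alternative settings.

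**Figure D2:**
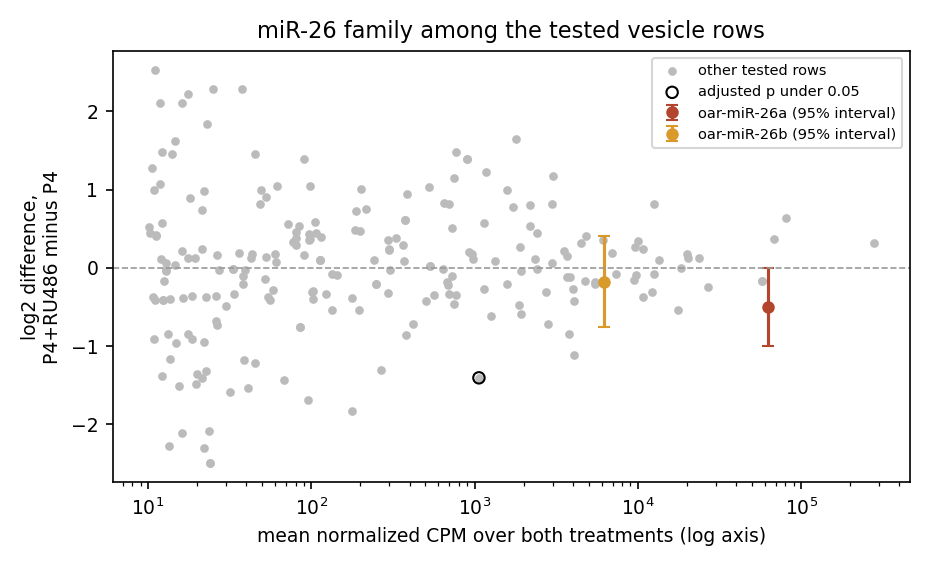
Log2 difference (P4+RU486 minus P4) of the 229 tested vesicle rows against their mean normalized CPM on a log axis. Each grey point is a row, the circled row has an adjusted p under 0.05, and the coloured points with 95% intervals are oar-miR-26a at -0.50 and oar-miR-26b at -0.18.

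As a share of the reads in listed rows, which needs no adjusted library size, oar-miR-26a took 4.79%, 6.69%, 4.45% and 4.06% in R01 to R04, against 7.69%, 7.31%, 8.28% and 6.28% in P01 to P04. The read totals count rows of identical values, such as 10_3805 and X_35741, each in full, so a signal that both may hold is counted in each. R02 lay above P04, and each of the other P4+RU486 libraries lay below all P4 libraries, so that in 15 of 16 pairs of libraries the P4 library was higher. Counting error was small beside this spread, with 95% Wilson intervals of 6.60% to 6.77% in R02 and 6.13% to 6.44% in P04, from 21962 and 6130 reads of oar-miR-26a. These intervals cover counting error only, as no molecular identifiers mark out independent molecules. The mean share was 4.99% ± 1.17 (SD, n = 4) in P4+RU486 and 7.39% ± 0.840 (SD, n = 4) in P4 (two-sided exact permutation p = 0.0571, where 0.0286 is the smallest that 4 against 4 libraries can give). P01 stood apart in how the scales related: its share was the second highest of the P4 libraries, while its normalized value was the second lowest, and its normalization factor was 1.31, against 0.856 to 1.07 in the other libraries.

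oar-miR-26b took 0.501%, 0.775%, 0.469% and 0.504% of reads in R01 to R04, against 0.621%, 0.638%, 0.778% and 0.613% in P01 to P04. The share in R02 was near that in P03, and the other P4+RU486 libraries lay below all P4 libraries. The mean was 0.562% ± 0.142 (SD, n = 4) in P4+RU486 and 0.663% ± 0.0777 (SD, n = 4) in P4 (exact permutation p = 0.314). Together both members held 5.56% ± 1.30 (SD, n = 4) of reads in P4+RU486 and 8.05% ± 0.900 (SD, n = 4) in P4, 2.50 percentage points lower in P4+RU486 (exact permutation p = 0.0571, and 0.0762 after Benjamini-Hochberg adjustment over the 4 exact tests on the members' shares, their sum and their ratio).

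**Figure D3:**
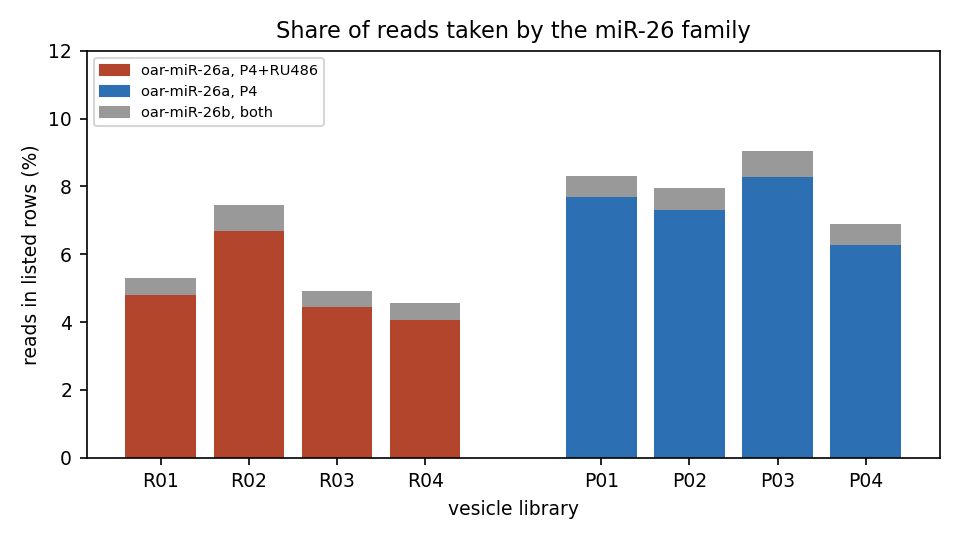
Share of the reads in listed rows taken by oar-miR-26a (coloured) and oar-miR-26b (grey, stacked above it) in each vesicle library, P4+RU486 libraries at the left and P4 libraries at the right. The family totals run from 4.56% to 7.46% in P4+RU486 and from 6.89% to 9.06% in P4, and R02 is the P4+RU486 library that reaches the P4 range.

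The members' proportion to each other separated the treatments in every library. oar-miR-26a was 9.56, 8.63, 9.48 and 8.05 times oar-miR-26b in R01 to R04, against 12.4, 11.5, 10.6 and 10.3 times in P01 to P04. Every P4+RU486 library lay below every P4 library, R02 included. The mean ratio was 8.93 ± 0.720 (SD, n = 4) in P4+RU486 and 11.2 ± 0.944 (SD, n = 4) in P4. The log2 ratio was lower by 0.32 in P4+RU486, at 3.15 ± 0.118 (SD, n = 4) in P4+RU486 and 3.48 ± 0.120 (SD, n = 4) in P4 (exact permutation p = 0.0286, the smallest that this design can give, and 0.0762 after adjustment over the same 4 tests, so it did not pass the correction). Within a library this ratio does not depend on the scaling. The separation is to be read against other rows: the log2 ratio of oar-miR-26a to another tested row did not overlap between treatments for 18.9% of 228 rows, and the ratio of oar-miR-26b to another row for 9.65%. oar-miR-26a made up 89.9% ± 0.749 (SD, n = 4) of the family's reads in P4+RU486 and 91.8% ± 0.626 (SD, n = 4) in P4. Because their mature sequences are near-identical, reads could be divided between both rows by the counting, and how the authors assigned such reads is not given in the sources used here.

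Library size moved with the share of oar-miR-26a within P4+RU486. Its 4 shares followed the order of their read totals, with R02 (328453 reads) highest and R04 (101186 reads) lowest. Among P4 libraries the deepest, P03, had the highest share, but the shallowest, P01 (97202 reads), came next. With the log2 read total as a covariate the log2 difference of oar-miR-26a was -0.40 (SE 0.16, limma adjusted p = 0.214) and that of oar-miR-26b -0.08 (SE 0.20, limma adjusted p = 0.876). Without the 3 libraries of fewest reads (R04, P01 and P04) they were farther from 0, at -0.71 (SE 0.26, limma adjusted p = 0.275) and -0.44 (SE 0.29, limma adjusted p = 0.466).

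**Figure D4:**
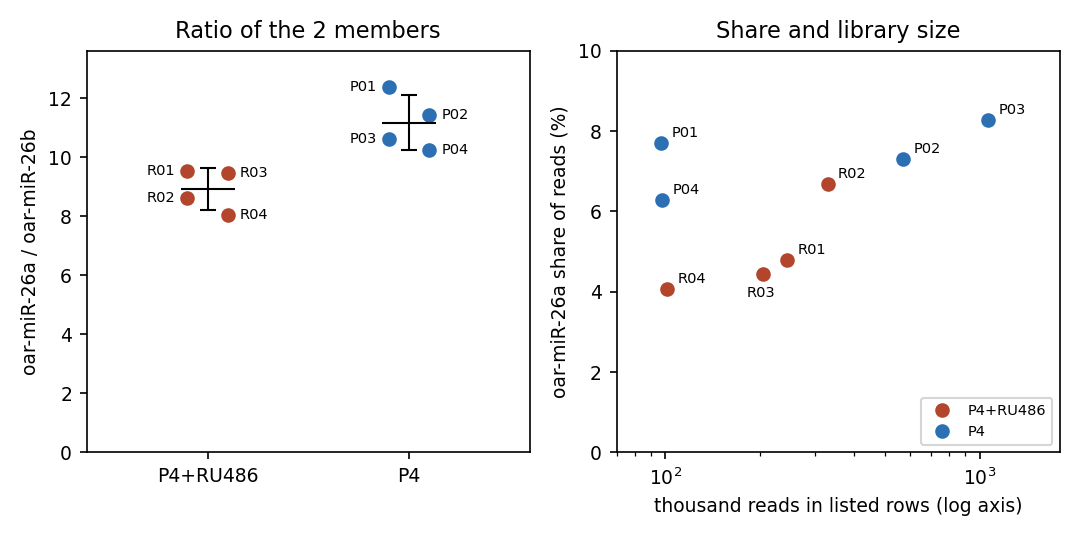
Left, the ratio of oar-miR-26a to oar-miR-26b in each vesicle library, with the mean and SD of 4 libraries, where P4+RU486 libraries run from 8.05 to 9.56 and P4 libraries from 10.3 to 12.4. Right, the share of reads taken by oar-miR-26a against the reads in listed rows (log axis), with P4+RU486 shares rising with the read total.

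The place of oar-miR-26a among the vesicle miRNAs differed by library. It ranked 6th, 4th, 6th and 6th by level in R01 to R04, against 4th, 3rd, 2nd and 3rd in P01 to P04 (exact permutation p = 0.0571 for the mean rank), and 4th by its mean over all libraries. The rows next above it by mean, oar-let-7f and oar-let-7a, belong to the let-7 family, which is known to hold down growth genes. Both lay above oar-miR-26a in 4 of 4 P4+RU486 libraries. In P4, let-7f lay above it in 2 of 4 libraries and let-7a in 0 of 4. Next below it by mean were 10_3805 and X_35741, which have the miR-92a seed and identical values, so they may hold 1 signal. They were at 54066 ± 6104 (SD, n = 4) normalized CPM in P4+RU486 and 61122 ± 12508 (SD, n = 4) in P4. They lay above oar-miR-26a in 3 of 4 P4+RU486 libraries and 1 of 4 P4 libraries, so their order with oar-miR-26a is not settled beyond the spread between libraries. The ranks and the permutation p for the mean rank count both rows, so the pair takes 2 places wherever it lies above a member. Ranks with the pair counted as 1 row were not computed. oar-miR-26b ranked from 23rd to 34th in P4+RU486 and from 25th to 30th in P4.

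Across the 8 vesicle libraries the members varied together. Pearson's r between their log2(value + 1) levels was 0.86 (permutation p = 0.00908) and Spearman's rho 0.74 (permutation p = 0.0458), and r was 0.80 without P03 and R04, the libraries farthest from the median of oar-miR-26a. For the shares of reads, the other of the 2 relations computed, r was 0.84 (permutation p = 0.00967) and rho 0.83 (permutation p = 0.0154), and r was 0.71 without R03 and R04. After Benjamini-Hochberg adjustment over both relations, p was 0.00967 for each r, and 0.0458 and 0.0308 for rho of the levels and of the shares. Libraries of both treatments were pooled and permuted together, so a difference between treatments enters each r, rho and p. Both members share a library and its scaling in each point, and the 4 libraries of one treatment are too few for a correlation within it. As a description, the deviations of both members from their treatment means had an r of 0.95. Of 228 other tested rows, oar-miR-26b had the second highest r with oar-miR-26a.

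The row most like oar-miR-26a by this measure was oar-miR-16b (r = 0.87 over 8 libraries), of a family that restrains cyclins. It was at 1570 ± 368 (SD, n = 4) normalized CPM in P4+RU486 and 2178 ± 489 (SD, n = 4) in P4, which differed by -0.48 on the log2 scale (SE 0.27, limma adjusted p = 0.461). The third was oar-miR-181a (r = 0.84 over 8 libraries), known for tuning signalling of the T cell receptor. It was at 9274 ± 1039 (SD, n = 4) in P4+RU486 and 12103 ± 2580 (SD, n = 4) in P4, which differed by -0.37 on the log2 scale (SE 0.22, limma adjusted p = 0.480). These rows were picked for their likeness out of 228, so their r is a description.

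Other miRNAs known to target EZH2 were far less abundant in the vesicles and none passed the test. Of the list miR-101, miR-138, miR-214 and miR-217, 5 rows were found by seed, and 4 were tested, with 0 higher and 0 lower at the threshold and a median log2 difference of -0.13. The rows 2_15485 and 1_2168, with the miR-101b-3p seed, have identical values and may hold 1 signal. Each was at 380, 1165, 325 and 407 normalized CPM in R01 to R04, against 456, 504, 642 and 372 in P01 to P04. As for both miR-26 members, R02 was the highest P4+RU486 library and P03 the highest P4 library. Their log2 difference, 0.02 (SE 0.40), had a limma adjusted p of 0.990. The rows with the miR-138 seed, 14_8728 and 19_14142, had 3 to 54 reads per library and log2 differences of -0.37 (SE 0.75) and -0.28 (SE 0.73), with limma adjusted p-values of 0.879 and 0.913. Their values were identical in R02, R03, P02 and P04, so they too may hold largely 1 signal. The median of the 4 tested rows therefore rests on fewer signals than rows. The row with the miR-214 seed, 12_6942, had at most 3 reads in a library, and no row was listed for miR-217.

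**Figure D5:**
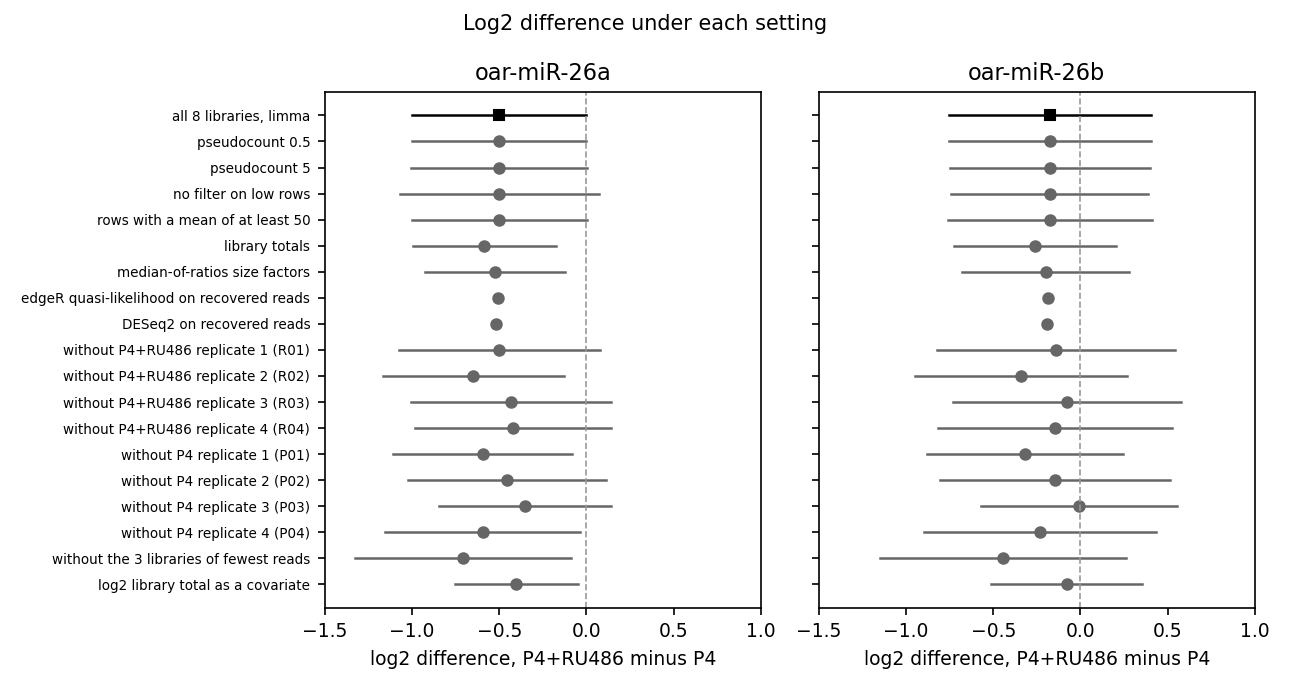
Log2 difference (P4+RU486 minus P4) of oar-miR-26a (left) and oar-miR-26b (right) with all 8 libraries (black square) and in each alternative setting (grey points), with 95% intervals for the limma fits. All estimates of oar-miR-26a lie between -0.71 and -0.35, and those of oar-miR-26b between -0.44 and -0.01.

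In vesicles, the authors' deposited table gives oar-miR-26a a signed fold of 1.42 with an adjusted p of 1. The authors' deposited table for vesicles gives oar-miR-26b a signed fold of 1.14 with an adjusted p of 0.80. A positive fold there is higher in P4, which held for 43 of 43 rows with an absolute fold above 2 and a mean of at least 10. In those vesicle results 1.82% of rows had an adjusted p under 0.05, and neither member was among them. In the authors' deposited table for endometrium, oar-miR-26a has a signed fold of -1.14 and an adjusted p of 0.096. There oar-miR-26b has a signed fold of -1.28 and an adjusted p of 0.657 in the authors' deposited table. The numerator of the endometrium folds is not named, so which treatment was higher is not stated here. Both members carry the same sign there. Of the 761 endometrium rows, 1.18% had an adjusted p under 0.05 in the authors' deposited table, and 11 rows had a smaller adjusted p than oar-miR-26a, although 64.3% of rows had a larger absolute fold. Endometrium levels and shares per library, and a test of vesicles against endometrium, were not analysed here.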

How the data were processed

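Per the labels' protocols, Illumina TruSeq small RNA libraries came from endometrium and from vesicles that size exclusion had isolated from a uterine flush. Cutadapt 1.11, genome build Oar_v3.1 and edgeR are named, per the submitters' processing notes; no aligner, locus prediction or counting rule is given there. Vesicle values were deposited as a normalized signal (CPM to an adjusted library size), and 100% of values in each library were whole multiples of 1 read's worth (tolerance 0.1 read), so reads were recovered. One read was worth 1.10 to 10.4 normalized CPM, and a floor of 3 reads 3.30 to 31.3. Recomputed TMM factors were within 1.98e-06 of those used by the authors. Signed folds (a score, with folds under 1 as minus their inverse) and adjusted p-values are the authors', per the file headers. The 10 endometrium columns per library match no label and were not used.

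The test was limma 3.58.1 (trend, R 4.3.3) on log2(value + 1), fitted over the 229 vesicle rows with a mean of at least 10 (99.9% of reads), with p-values adjusted by Benjamini-Hochberg and called under 0.05, checked on simulated data. Fold changes on this scale understate changes of low rows. Shares and ratios were compared by two-sided exact permutation tests over libraries. Alternatives used other pseudocounts (0.5 and 5), filters (none and 50), scalings, libraries, a depth covariate, edgeR 4.0.16 (quasi-likelihood) and DESeq2 1.42.0 on recovered reads. Libraries of a treatment come from different ewes. Named rows were both members, the 3 rows most correlated with oar-miR-26a, the 2 rows next above and next below it by mean, and miRNAs known to target EZH2. Members and lists were chosen with earlier results of these data known.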

Additional observations from a re-analysis of the deposited data

Results flagged for a closer look

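In 2 of the 12 groups of 4 libraries examined for the members' levels, shares and ratio, 1 library lay far from the other 3, where chance gives about 1 in 20. Both concern the share of reads taken by oar-miR-26b. In P4+RU486, R02 was at 0.775%, with a gap to the nearest other library of 0.886 of the group's range. In P4, P03 was at 0.778%, with a gap of 0.847 of the range. R02 and P03 are also the libraries with the most reads of their treatments, and the part of library size in these shares was not tested.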

How the results depend on the processing

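Both members kept a negative log2 difference, and neither passed the threshold, in all 18 alternatives. With 1 library left out, the log2 difference ranged from -0.65 to -0.35 for oar-miR-26a (limma adjusted p from 0.247 to 0.565) and from -0.34 to -0.01 for oar-miR-26b (0.544 to 0.997). The value nearest 0 came without P03 for both, and those farthest from 0 without R02. Without the 3 libraries of fewest reads they were -0.71 and -0.44. In the 10 alternatives other than single left-out libraries, adjusted p ranged from 0.191 to 0.732 for oar-miR-26a and from 0.466 to 0.876 for oar-miR-26b. Library totals moved the median of all rows by -0.10, and oar-miR-26a was then at -0.58. The count of rows called over the whole table was 1, and it was 4 with DESeq2, 6 with depth as a covariate and 0 to 2 with 1 library left out. It was 0 without R01, R03, R04 or P04 (26, 20, 26 and 30 rows at an unadjusted limma p under 0.05), and 2 without P02. No family row was among those called. The family share differed by -3.13 to -2.16 percentage points with 1 library left out (exact permutation p from 0.0571 to 0.114), and by -2.61 without the 3 libraries of fewest reads, where p = 0.2 is the smallest that the design allows. With oar-miR-10a taken out of the read total, the family share differed by -3.10 percentage points (exact permutation p = 0.0571). The family share then ran from 6.25% to 10.0% in P4+RU486 and from 9.31% to 13.8% in P4, so oar-miR-10a takes a sizeable part of the read total. R02 and P01 were then both at 10.0%. The log2 ratio of the members differed by -0.36 to -0.27 with 1 library left out, each with an exact permutation p of 0.0571, the smallest that 4 against 3 libraries can give. No paired analysis was possible because the vesicle columns carry no ewe number and their numbers are not shared labels. The planned endometrium alternatives and the comparison of shares between vesicles and endometrium were not run, because those columns match no label. With depth as a covariate the log2 difference was -0.40 for oar-miR-26a and -0.08 for oar-miR-26b. oar-miR-26a had at least 4105 reads in each library, which bounds its counting error only.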
